A study of Mus musculus with 27 samples.

Results

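The galectins are described here in NMuMG cells, an epithelial line from mouse mammary gland that undergoes epithelial-to-mesenchymal transition (EMT) when it is treated with transforming growth factor (TGF)-β. The members are 7 genes, Lgals1, Lgals2, Lgals3, Lgals4, Lgals7, Lgals8 and Lgals9, of 24892 genes listed in the RNA-seq tables of the study. They were taken by name, and the family was chosen by the measured fall of Lgals4 under TGF-β in these same libraries. The fall of Lgals4 under TGF-β is therefore given as a description and was not tested, while the other members, and the comparisons with lamin B1 knockdown (KD), were tested. RNA-seq covered parental cells (6 libraries) and cells infected to express a control shRNA or an shRNA against lamin B1 (12 libraries), each without TGF-β and at 8 h and 24 h of treatment, with 2 libraries per group that the methods call biological replicates. All cells were kept in serum with insulin, TGF-β was used at 1 to 5 ng/ml per the labels, and control shRNA cells carry an irrelevant shRNA. Lamin B1 ChIP-seq and ATAC-seq, which marks accessible chromatin, were done on treated and untreated cells with 1 library per time point, so peaks have no replicate.

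Galectins are small lectins that bind β-galactoside sugars on glycoproteins and glycolipids. They are made in the cytoplasm, leave the cell by a route without a signal peptide, and cross-link receptors at the cell surface, while some also act inside the cell on damaged endosomes. Lgals1, Lgals2 and Lgals7 encode galectins with a single sugar-binding domain, Lgals3 the chimera type with a long N-terminal tail, and Lgals4, Lgals8 and Lgals9 the tandem-repeat type with a pair of such domains. Galectin-1 and galectin-3 are widely expressed, whereas galectin-2 and galectin-4 are best known from the gut epithelium, and galectin-7 from stratified epithelium.

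On the mouse genome build mm9 the genes lie on 5 chromosomes. Lgals4 (chr7:29618813-29626722, plus strand) and Lgals7 (chr7:29648872-29651303, plus strand) are neighbours 22.1 kb apart. Lgals2 (chr15:78681292-78685959, minus strand) and Lgals1 (chr15:78757155-78760895, plus strand) lie 71.2 kb apart. Lgals3 is at chr14:47987426-48005835 on the plus strand, Lgals8 at chr13:12531682-12557211 and Lgals9 at chr11:78776476-78798448, both on the minus strand. The end of Lgals2 overlaps the end of Cdc42ep1, on the opposite strand, by 41 bases. The study shows RNA-seq profiles by strand, but whether the FPKM values were counted with strand is not stated, so the assignment of reads in the overlap is uncertain. Cdc42ep1 was at 68.6 and 65.8 FPKM in untreated parental cells and at 115 and 117 at 24 h. In the annotation none of the other 6 members overlaps another annotated gene.

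The sequences before the start sites of 3 members are shown because these genes fell under TGF-β and because they differ in ATAC signal, as described with the peaks. RefSeq promoter entries were found for 6 of the 7 members, and the 250 bases before each RefSeq start (build GRCm38.p6) had a single exact match on mm9. They are printed 5′ to 3′ on the strand of the gene, and capitals mark matches to CACCTG, the E-box bound by Zeb and Snail factors, or to CAGAC, the core bound by SMAD proteins, on either strand.
Lgals4, chr7:29618563-29618812, plus strand: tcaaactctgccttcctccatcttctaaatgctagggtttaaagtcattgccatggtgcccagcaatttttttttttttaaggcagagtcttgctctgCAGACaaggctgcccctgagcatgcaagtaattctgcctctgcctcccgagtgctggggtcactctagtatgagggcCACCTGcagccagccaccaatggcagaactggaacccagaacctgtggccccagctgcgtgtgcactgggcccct
Lgals2, chr15:78685960-78686209, minus strand: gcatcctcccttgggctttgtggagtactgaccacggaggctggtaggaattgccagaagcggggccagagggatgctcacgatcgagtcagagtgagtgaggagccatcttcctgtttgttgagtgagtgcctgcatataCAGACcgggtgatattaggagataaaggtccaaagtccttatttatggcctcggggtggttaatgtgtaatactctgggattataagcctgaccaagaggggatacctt
Lgals9, chr11:78798427-78798676, minus strand: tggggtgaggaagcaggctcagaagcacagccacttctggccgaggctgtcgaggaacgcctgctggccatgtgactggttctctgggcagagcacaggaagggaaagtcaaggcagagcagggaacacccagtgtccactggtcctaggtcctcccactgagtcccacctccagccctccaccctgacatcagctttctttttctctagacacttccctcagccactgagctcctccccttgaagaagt
The Lgals4 window held CACCTG from -75 to -70 and CAGAC from -152 to -148, counted from the start. The Lgals2 window held CAGAC from -109 to -105, and the Lgals9 window held neither. Among 32851 RefSeq promoters, 17.2% held CACCTG and 42.2% CAGAC in the same window, so that these matches describe the windows and name no site of binding. Of the other 3 matched members, Lgals3 held CACCTG and CAGAC, Lgals7 held CAGAC and Lgals8 held neither. AP-1 (TGANTCA, in 6.75% of all windows) and TATAAA (12.4%) were in none of the 6 windows, and GGGCGG (32.7%) was in those of Lgals3 and Lgals7.

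In untreated parental cells 3 galectins were among the most abundant mRNAs. Values are in FPKM, fragments scaled by transcript length and library size, which allows genes to be compared per length. Lgals1 stood at 2176 and 2054 FPKM (mean 2115 ± 86.5, SD, n = 2) and Lgals2 at 1831 and 1687 (1759 ± 101), the 36th and 50th highest means of 23295 genes. Lgals3 followed at 823 and 773 FPKM (798 ± 34.9, rank 121). Lgals4 was at 210 and 204 FPKM and Lgals9 at 171 and 163, so that the order of these neighbours held in both untreated libraries. Lgals8 was lower, at 27.5 and 28.4 FPKM. Lgals7 was between 0 and 0.460 FPKM in the 6 parental libraries and between 0 and 0.379 in the 12 shRNA libraries, and listed at 0 in 2 libraries of each table, so it was below the filter and not tested. The other 6 members passed the filter of at least 1 FPKM in at least 2 libraries.

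**Figure D1:**
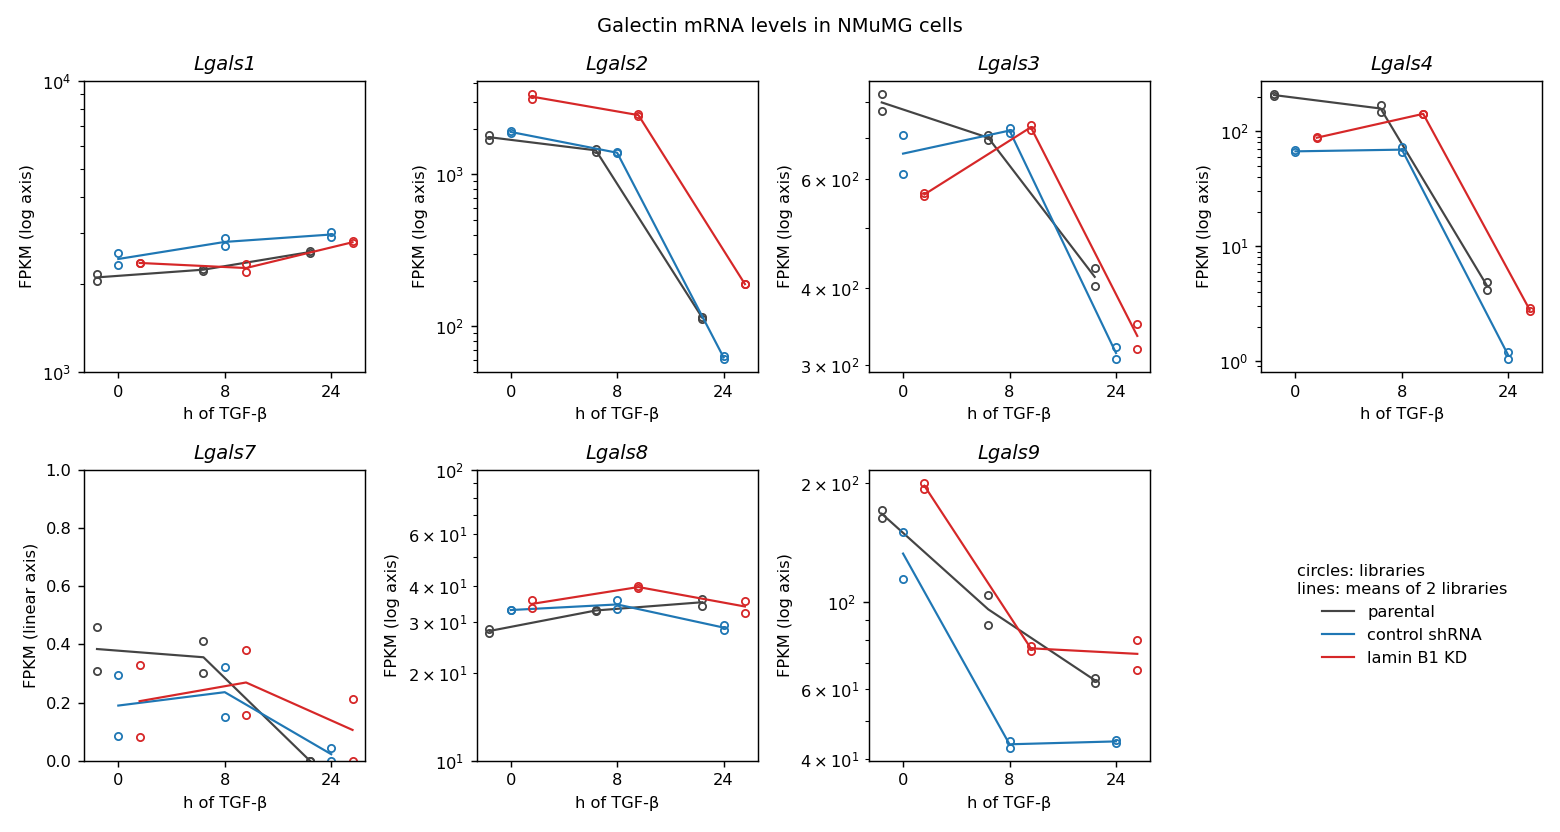
FPKM of the 7 galectins in parental, control shRNA and lamin B1 KD cells after 0, 8 and 24 h of TGF-β, which are set at equal distances. Circles are the 2 libraries of a group and lines join the means, on log axes except for Lgals7. Lgals2 and Lgals4 drop between 8 and 24 h in all 3 kinds of cells, and the KD libraries of both lie above the control libraries at each time.

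TGF-β for 24 h lowered Lgals2, Lgals3 and Lgals9 and raised Lgals1 and Lgals8 in parental cells. These 5 tested members other than Lgals4 all passed the test (limma, adjusted p under 0.05), 2 higher and 3 lower, against 70.5% of the 11309 genes tested (33.4% higher and 37.1% lower). Lgals2, which encodes the galectin known from the gut, went from 1831 and 1687 FPKM to 112 and 115, 6.46% of the untreated mean. Every treated library lay far below every untreated one. The log2 change was -3.94 (SE 0.052, adjusted p = 1.3e-07), the 17th largest fall in the table. Lgals9, a ligand of the receptor Tim-3, went from 171 and 163 to 62.3 and 64.2 FPKM (log2 change -1.39, adjusted p = 6.4e-06). Lgals3, whose product forms lattices on branched N-glycans, went from 823 and 773 to 404 and 430 FPKM (-0.94, adjusted p = 5.7e-06). Treated and untreated libraries did not overlap for these 3 genes, a weak criterion with 2 libraries a group and given without the share of all genes.

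The rises were small beside these falls. Lgals1 went from 2176 and 2054 to 2610 and 2560 FPKM, a log2 change of 0.29 (95% interval 0.17 to 0.41, adjusted p = 0.0019). Lgals8, which marks damaged vesicles, went from 27.5 and 28.4 to 34.0 and 36.1 FPKM (0.32, 0.21 to 0.42, adjusted p = 0.00054). Over all tested genes the median change was -0.0189.

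Lgals4, the gene that chose the family, went from 210 and 204 FPKM to 4.18 and 4.87 in parental cells at 24 h. The treated mean was 2.19% of the untreated mean, and the log2 change of FPKM + 1 was -5.24, the 2nd lowest of 11309. The added constant of 1 makes this value smaller for a gene that ends so low, and it was -5.49 with a constant of 0.1. Lgals6, a near-identical copy of Lgals4 that the tables list as a gene of its own, stood at 3.06 and 2.44 FPKM in untreated cells and near 0 in both libraries at 24 h. Reads of these copies may have been split between them, so the Lgals4 values are uncertain by what Lgals6 took, which was small beside them.

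Most of the fall of Lgals2, Lgals3 and Lgals4 came after 8 h. At 8 h, Lgals2 was still at 1410 and 1473 FPKM in parental cells (log2 change -0.29, adjusted p = 0.0035) and Lgals3 at 693 and 706 (-0.19, adjusted p = 0.018). Lgals4 was at 147 and 169 FPKM. Lgals9 was the member with the largest early change, at 87.3 and 104 FPKM (-0.80, adjusted p = 0.00022). Lgals8 had risen to 32.9 and 32.8 FPKM (0.23, adjusted p = 0.0047), and Lgals1, at 2231 and 2266, did not pass the test (0.09, adjusted p = 0.19), though it did after quantile normalization (0.14, adjusted p = 0.012). Of the 5 tested members other than Lgals4, 4 passed at 8 h, 1 higher and 3 lower, against 54.5% of all genes (22.4% higher and 32.1% lower). The Lgals3 call did not hold without the first library of untreated cells or the first at 8 h (adjusted p = 0.087 and 0.071), nor after quantile normalization (-0.07, adjusted p = 0.26). Between 8 and 24 h, 4 of the 5 changed, 1 higher and 3 lower, against 51.8% of all genes (27.7% higher and 24.0% lower), with Lgals2 at -3.65, Lgals3 at -0.75 and Lgals9 at -0.58, and Lgals1 at 0.20, a call that was lost when any 1 of the 4 libraries at 8 or 24 h was left out (adjusted p from 0.055 to 0.11).

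Cells with the control shRNA also had lower Lgals2 after TGF-β, from 1872 and 1939 FPKM to 63.6 and 60.9 at 24 h (log2 change -4.91, adjusted p = 8.6e-11). The treated mean was 3.27% of the untreated mean. Lgals3 went from 612 and 707 to 307 and 321 FPKM (-1.07, adjusted p = 1.3e-06). Lgals9 went from 150 and 114 to 43.8 and 44.8 FPKM (-1.55, adjusted p = 3.5e-06) and had reached 42.7 and 44.4 by 8 h (-1.57, adjusted p = 5.8e-06). Lgals4 began lower in these cells, at 68.4 and 65.6 FPKM, held 66.0 and 72.6 at 8 h and was at 1.19 and 1.05 at 24 h. The 8 h groups of Lgals4 thus overlapped the untreated ones here, whereas in parental cells both 8 h libraries were lower. The shRNA and parental tables were normalized separately, so levels are not compared between them with a test.

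The small changes of the other members depended on the scaling of the shRNA table. At 24 h, all 5 tested members other than Lgals4 passed in control shRNA cells, against 70.7% of 11450 genes, but only Lgals2, Lgals3 and Lgals9 after quantile normalization. Lgals1 was at 2910 and 3029 FPKM against 2325 and 2568 (log2 change 0.28, adjusted p = 0.003), and Lgals8 at 29.3 and 28.0 against 33.0 and 32.9 (-0.19, adjusted p = 0.013, or 0.084 without the second 24 h control library). The median change over all genes was -0.134 in this comparison and -0.143 at 8 h, and lower calls outnumbered higher ones, 5169 to 2924 at 24 h and 5137 to 2223 at 8 h. Under quantile normalization the medians were -0.0035 and -0.0246, the splits 3901 to 3900 and 3624 to 3082, and the changes of Lgals1 and Lgals8 at 24 h 0.11 and -0.06, neither called (adjusted p = 0.37 and 0.33). At 8 h, 3 of the 5 members passed, 1 higher and 2 lower, against 64.3% of all genes (19.4% higher and 44.9% lower), namely Lgals1 (0.20), Lgals2 (-0.45) and Lgals9, and the Lgals1 call was lost under quantile normalization too (0.03, adjusted p = 0.81). That Lgals1 call was also lost without the first untreated or the second 8 h control library (adjusted p = 0.14 and 0.12), and Lgals3, at 711 and 726 FPKM (0.13, adjusted p = 0.14), was called without the second untreated library (0.23, adjusted p = 0.011).

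In lamin B1 KD cells Lgals2, Lgals3 and Lgals9 were lower after TGF-β as well. At 24 h Lgals2 was at 190 and 189 FPKM against 3375 and 3137 in untreated KD cells (log2 change -4.10, adjusted p = 1.7e-10). Lgals3 fell (-0.76, adjusted p = 1e-05) and Lgals9 fell (-1.41, adjusted p = 6e-06), and 4 of the 5 tested members passed, against 71.9% of all genes. Lgals1 was the 4th (0.24, adjusted p = 0.0074), a change of 0.005 after quantile normalization, which also moved the median of all genes from -0.103 to -0.00368 and the split from 4959 lower and 3277 higher to 4103 and 4126. Lgals4 went from 87.3 and 88.7 to 2.89 and 2.72 FPKM. At 8 h, 4 of 5 passed, against 67.8% of all genes: Lgals2 (-0.40) and Lgals9 (-1.36) were lower, and Lgals3 (0.36) and Lgals8 (0.19, adjusted p = 0.016, lost without the second untreated or the second 8 h KD library) were higher, beside a median of -0.131 over all genes, which quantile normalization brought to -0.0277 with the split moving from 5132 lower and 2629 higher to 4036 and 3432. Lgals4 was at 141 and 143 FPKM at 8 h, above both untreated KD libraries.

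These changes altered the make-up of the galectin mRNA pool, taken as the summed FPKM of the 7 genes. In parental cells the sum was 5239 and 4910 FPKM without TGF-β, 4601 and 4752 at 8 h, and 3226 and 3210 at 24 h. Lgals1 made up 41.5% and 41.8% of it in untreated cells and 80.9% and 79.7% at 24 h. Lgals2 went from 34.9% and 34.4% to 3.48% and 3.58%. In control shRNA cells the Lgals1 share went from 45.9% and 47.3% to 86.7% and 86.9%. Untreated KD cells were the group with the highest Lgals2 share, 50.9% and 49.0%, and in untreated and 8 h KD cells Lgals2, not Lgals1, was the most abundant galectin in both libraries. As these are bulk samples, a lower level in every cell and a smaller share of expressing cells cannot be told apart.

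**Figure D2:**
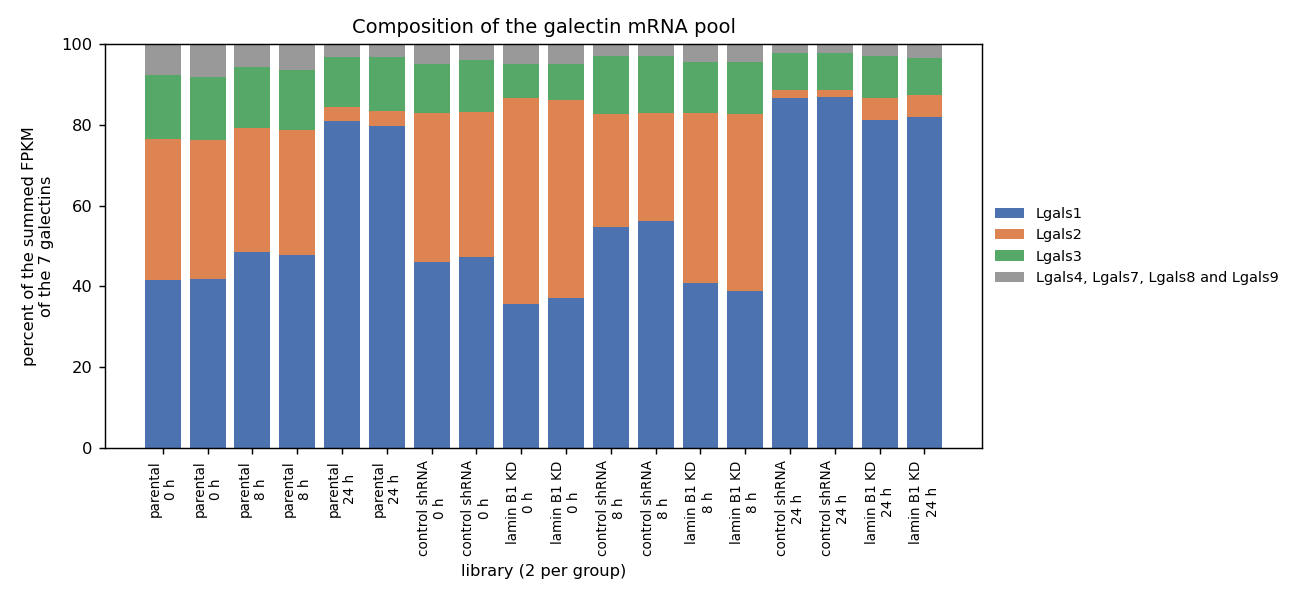
Percent of the summed FPKM of the 7 galectins given by Lgals1, Lgals2, Lgals3 and the other 4 genes, 1 bar for each of the 18 libraries. Lgals1 makes up 79.7% to 86.9% of the sum in the 24 h libraries of all 3 kinds of cells.

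To ask how galectins depend on lamin B1, a protein of the nuclear lamina, KD cells were compared with control shRNA cells at each time. The target itself was lower in every KD library: Lmnb1 was at 9.01 and 9.27 FPKM against 29.2 and 36.5 in untreated cells, at 7.79 and 8.14 against 32.8 and 32.1 at 8 h, and at 4.37 and 7.52 against 18.4 and 17.9 at 24 h. Both kinds of cells were made by infection with an shRNA virus.

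Lgals2 was higher in KD cells at all times. In untreated cells it stood at 3375 and 3137 FPKM against 1872 and 1939 in control cells, 1.71 times the control mean (log2 difference 0.77, 95% interval 0.67 to 0.88, adjusted p = 3.5e-05). At 8 h it was at 2425 and 2493 against 1395 and 1384 FPKM (0.82, 0.72 to 0.93, adjusted p = 1.8e-05). At 24 h it was at 190 and 189 against 63.6 and 60.9 FPKM, 3.04 times the control mean (1.59, 1.49 to 1.69, adjusted p = 9.3e-07), the 33rd largest rise of 11450 genes.

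Lgals4 and Lgals9 were higher in KD cells at each time too. Lgals4 was at 87.3 and 88.7 against 68.4 and 65.6 FPKM in untreated cells (log2 difference 0.39, adjusted p = 0.0026) and at 141 and 143 against 66.0 and 72.6 at 8 h (1.03, adjusted p = 1.8e-05). At 24 h it was at 2.89 and 2.72 against 1.19 and 1.05 FPKM (0.84, adjusted p = 6.4e-05), a difference between levels near the filter. Lgals9 was at 200 and 193 against 150 and 114 FPKM in untreated cells (0.58, adjusted p = 0.011). At 8 h it was at 77.3 and 75.0 against 42.7 and 44.4 (0.79, adjusted p = 0.0014), and at 24 h at 67.3 and 80.2 against 43.8 and 44.8 (0.72, adjusted p = 0.0033). No KD library of the 3 genes overlapped a control library of the same time, a weak criterion with 2 libraries a group. The share of all genes so separated is not given. The Lgals9 call in untreated cells was lost without either untreated KD library (adjusted p = 0.079 and 0.061).

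The other members differed less. Lgals8 was at 39.1 and 39.9 against 35.6 and 33.3 FPKM at 8 h (0.19, adjusted p = 0.027) and at 35.5 and 32.3 against 29.3 and 28.0 at 24 h (0.23, adjusted p = 0.017). The 8 h call was lost without the second control library or either KD library of 8 h, and the 24 h call without either control library of 24 h (adjusted p from 0.058 to 0.17). Lgals1 was lower in KD cells at 8 h, at 2351 and 2205 against 2708 and 2892 FPKM (-0.30, adjusted p = 0.0065), which quantile normalization brought to -0.10 (adjusted p = 0.49). Lgals3 passed at no time with all libraries and no rescaling, with differences of -0.22 (95% interval -0.37 to -0.06, adjusted p = 0.059) in untreated cells, 0.02 (-0.14 to 0.17) at 8 h and 0.09 (-0.07 to 0.25) at 24 h. Its difference in untreated cells was called without the first untreated control library (-0.32, adjusted p = 0.0094) or either 24 h KD library, and that at 8 h after quantile normalization (0.24, adjusted p = 0.041). In all, 3 of 6 tested galectins passed in untreated cells, against 19.7% of all genes, 5 of 6 at 8 h, against 35.8%, and 4 of 6 at 24 h, against 28.3%. Of these, 3, 4 and 4 were higher in KD cells, where 10.6%, 19.3% and 16.8% of all genes were called higher and 9.09%, 16.5% and 11.5% lower.

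**Figure D3:**
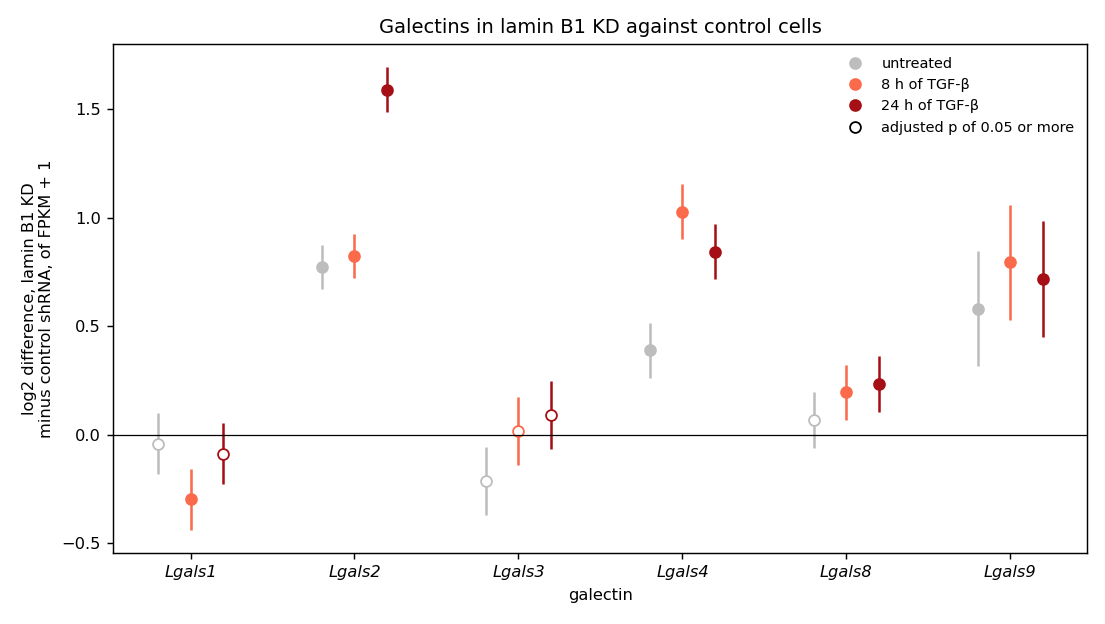
Log2 difference of FPKM + 1 between lamin B1 KD and control shRNA cells for the 6 tested galectins, without TGF-β and after 8 and 24 h. Bars are 95% intervals of the fit over 12 libraries, and filled points have an adjusted p under 0.05. Lgals2, Lgals4 and Lgals9 lie above 0 at all times, with Lgals2 at 1.59 after 24 h.

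Whether the response to TGF-β itself differed between KD and control cells was tested as the difference of the responses. At 24 h it was 0.82 for Lgals2 (95% interval 0.67 to 0.96, adjusted p = 0.00064), so on the log2 scale Lgals2 fell less in KD cells, where it began higher. For Lgals4 it was 0.64 at 8 h (0.46 to 0.82, adjusted p = 0.0087) and 0.45 at 24 h (0.28 to 0.63, adjusted p = 0.021). As the fall of Lgals4 under TGF-β chose the family, these p-values are not independent of that choice, and the Lgals4 differences are a description. The Lgals4 difference at 8 h was lost without either untreated KD library or the second KD library of 8 h (adjusted p from 0.052 to 0.055), and the difference at 24 h without either untreated KD library or either control library of 24 h, or when only the 4 groups compared were fitted (0.053 to 0.094). Its size stayed between 0.40 and 0.65 in those fits, but with a constant of 0.1 in place of 1 the 24 h difference was 0.86 (adjusted p = 0.0058), since Lgals4 was so low at that time. No other tested member passed at 8 h or 24 h. In all, 1 of 6 passed at 8 h, against 4.06% of all genes (2.45% higher and 1.61% lower), and 2 of 6 at 24 h, against 4.72% (2.73% higher and 1.98% lower). Without Lgals4, 0 of 5 passed at 8 h and 1 of 5 at 24 h. Over all genes the calls at 24 h were 313 higher and 227 lower, and 246 and 267 after quantile normalization. Lgals1 was called at 8 h without the second untreated control library (-0.33, adjusted p = 0.046), and Lgals3 at 24 h without the first (0.41, adjusted p = 0.032).

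The loci were then compared with lamin B1 ChIP peaks. Lamin B1 peaks were taken at a gene when they overlapped it or the 2500 bp before its start. None of the 7 galectins had such a peak before TGF-β, at 8 h or at 24 h, where 19.9%, 38.8% and 29.4% of 20994 placed genes had one, and 15.4%, 30.5% and 23.8% within 500 bp of the start. The nearest peaks were just past the end of Lgals2, inside Cdc42ep1. They lay 643 bp from Lgals2 in untreated cells (chr15:78678750-78680649, MACS score 90.93) and 605 bp from it at 8 h (chr15:78679369-78680687, score 110.05), and at 24 h the nearest was 7.49 kb away. The nearest peak to Lgals1 was at 3.97, 4.33 and 8.22 kb, in the order of time. The nearest to Lgals4 lay 93.2, 22.2 and 50.8 kb away, and those to Lgals3, Lgals7, Lgals8 and Lgals9 between 21.2 and 460 kb.

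ATAC peaks were found at 3 galectins before TGF-β, 4 at 8 h and 5 at 24 h, where 37.0%, 32.9% and 60.0% of placed genes had one. The 24 h list is the longest, with 33811 peaks against 9782 and 10340, and reads behind the lists are unknown, so that a peak seen only at 24 h was not shown to be gained. At the start of Lgals1 a peak was called each time, with scores of 90.47, 54.78 and 443.88. At the start of Lgals2 a peak was called at 8 h (chr15:78685531-78686474, score 68.67) and at 24 h (chr15:78685741-78687092, score 281.50) and not in untreated cells, and both cover the whole window printed above. Lgals9 had a peak over its start, covering the printed window, at 24 h only (chr11:78798158-78799081, score 110.95). With lists of equal length the Lgals9 peak was no longer among those kept. The start of Lgals2 was in the list both at 8 h, when its parental mRNA was at 81.9% of the untreated mean, and at 24 h, when it was at 6.46%. The inner region with 5 of the 6 annotated coding starts of Lgals8 held a peak each time (96.61, 59.61 and 426.84), and Lgals3 held a peak in an intron before 5 of its 6 annotated coding starts (81.02, 94.13 and 340.15) and, at 24 h, another over those starts (99.17).

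Lgals4 and Lgals7 had no ATAC peak at any time. The nearest to Lgals4 lay 22.5 kb away in untreated cells, 22.8 kb at 8 h, and 8.13 kb at 24 h, inside Ech1 (chr7:29609855-29610684). The printed Lgals4 window, with its CACCTG, therefore lay in no ATAC or lamin B1 peak of these lists, also in untreated cells, in which Lgals4 was at 210 and 204 FPKM. Within 500 bp of the outermost start the counts of members were 1, 2 and 3, against 30.6%, 25.0% and 47.1% of placed genes.

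**Figure D4:**
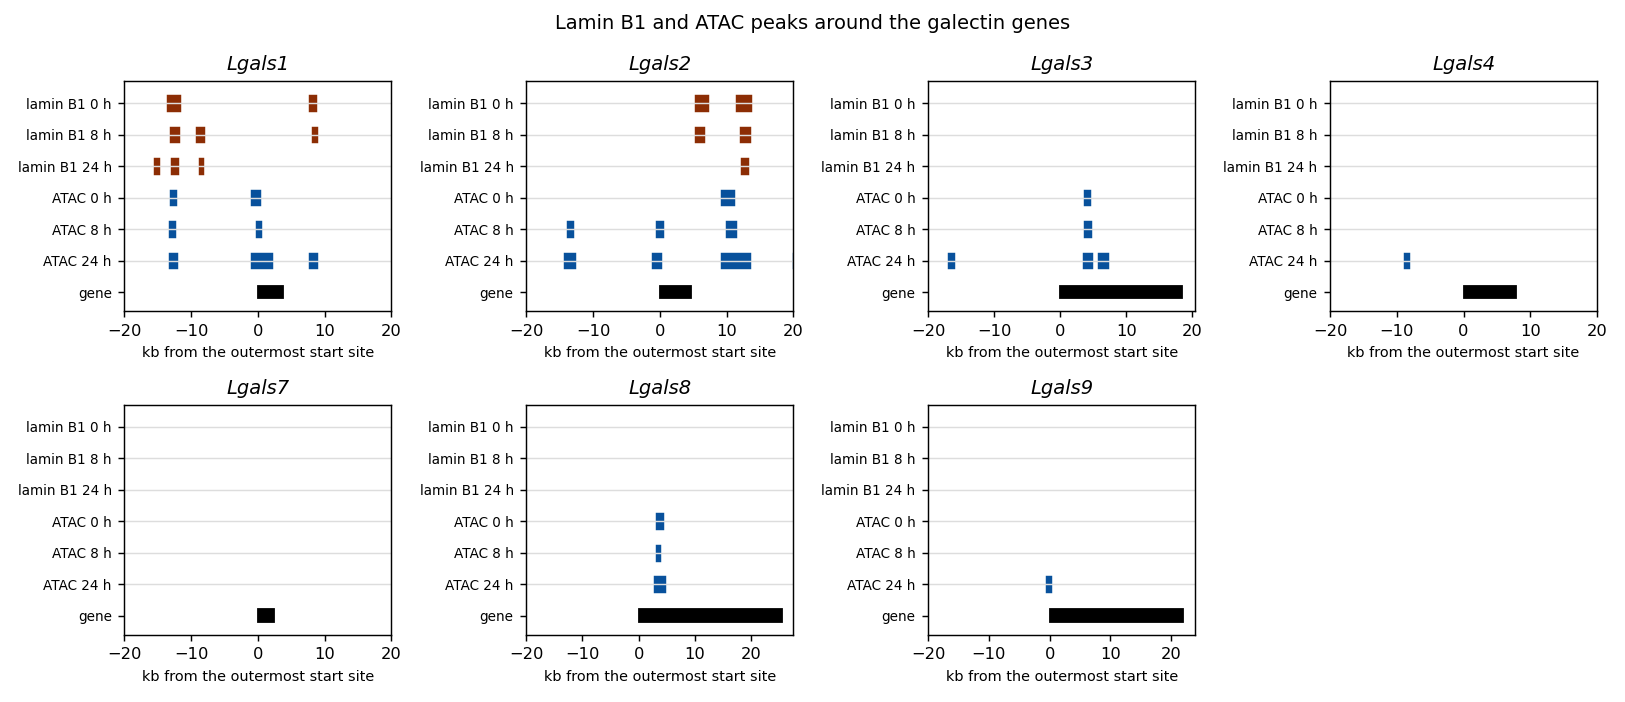
Lamin B1 and ATAC peaks around each galectin, as distance in kb from the outermost annotated start site, with the gene drawn as a black bar and 1 row per assay and time. No lamin B1 peak touches a galectin, Lgals1 has an ATAC peak at its start in all 3 rows, and Lgals4 and Lgals7 have none inside the gene.

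The genes that make or mask the sugars which galectins bind moved in both directions. Of 17 glycan enzymes tested, 15 passed in parental cells at 24 h, with 9 higher and 6 lower and a median log2 change of 0.25, against -0.0189 over all genes, of which 33.4% were called higher and 37.1% lower. In control shRNA cells 8 were higher and 5 lower (25.5% and 45.1% of all genes), and in KD cells 10 and 4 (28.6% and 43.3%). B4galt1, which adds the galactose of N-acetyllactosamine, went from 31.0 and 32.0 to 65.1 and 63.8 FPKM in parental cells and was already at 67.3 and 60.3 at 8 h (log2 change 0.99, adjusted p = 3.8e-05). Mgat3, which adds the bisecting N-acetylglucosamine, went from 68.7 and 69.1 to 15.9 and 17.7 FPKM (-1.98, adjusted p = 6e-05), and in control shRNA cells from 77.1 and 72.7 to 3.93 and 4.19. St3gal4, which caps galactose with sialic acid, went from 92.6 and 75.5 to 25.7 and 25.8 FPKM at 8 h in control shRNA cells (-1.66, adjusted p = 3.7e-07). Gcnt1, which builds core 2 O-glycans, went from 4.34 and 4.48 to 1.44 and 1.66 FPKM at 8 h in parental cells (-1.08, adjusted p = 6.5e-05).

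Of the 18 glycoproteins listed as galectin ligands, 16 were tested and 13 passed in parental cells at 24 h, 10 higher and 3 lower, where 33.4% of all genes were called higher and 37.1% lower. Fn1 (fibronectin) rose from 53.0 and 64.4 to 486 and 503 FPKM (log2 change 3.06, adjusted p = 9e-07) and Itga5, its integrin receptor subunit, from 16.6 and 16.7 to 108 and 101 (2.58, adjusted p = 1.9e-06). Muc1, a mucin of the apical surface, fell from 23.4 and 22.1 to 2.30 and 2.13 FPKM (-2.88, adjusted p = 5e-06). Mcam, an adhesion receptor, rose from 1.02 and 0.813 to 6.53 and 5.72 FPKM (1.89). Havcr2, which encodes Tim-3, rose from 0.458 and 0.410 to 2.70 and 2.29 FPKM at 8 h (1.28), a low level. Without the treated libraries neither Mcam nor Havcr2 would have passed the filter in parental cells, so their calls carry no weight of their own. The 10 ligands called higher in parental cells include Mcam. In control shRNA cells 10 were higher and 4 lower (25.5% and 45.1% of all genes), and in KD cells 10 and 3 (28.6% and 43.3%). Among 6 intracellular partners, 5 were tested, and 3 passed in parental cells at 24 h, 1 higher and 2 lower, against 70.5% of all genes.

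**Figure D5:**
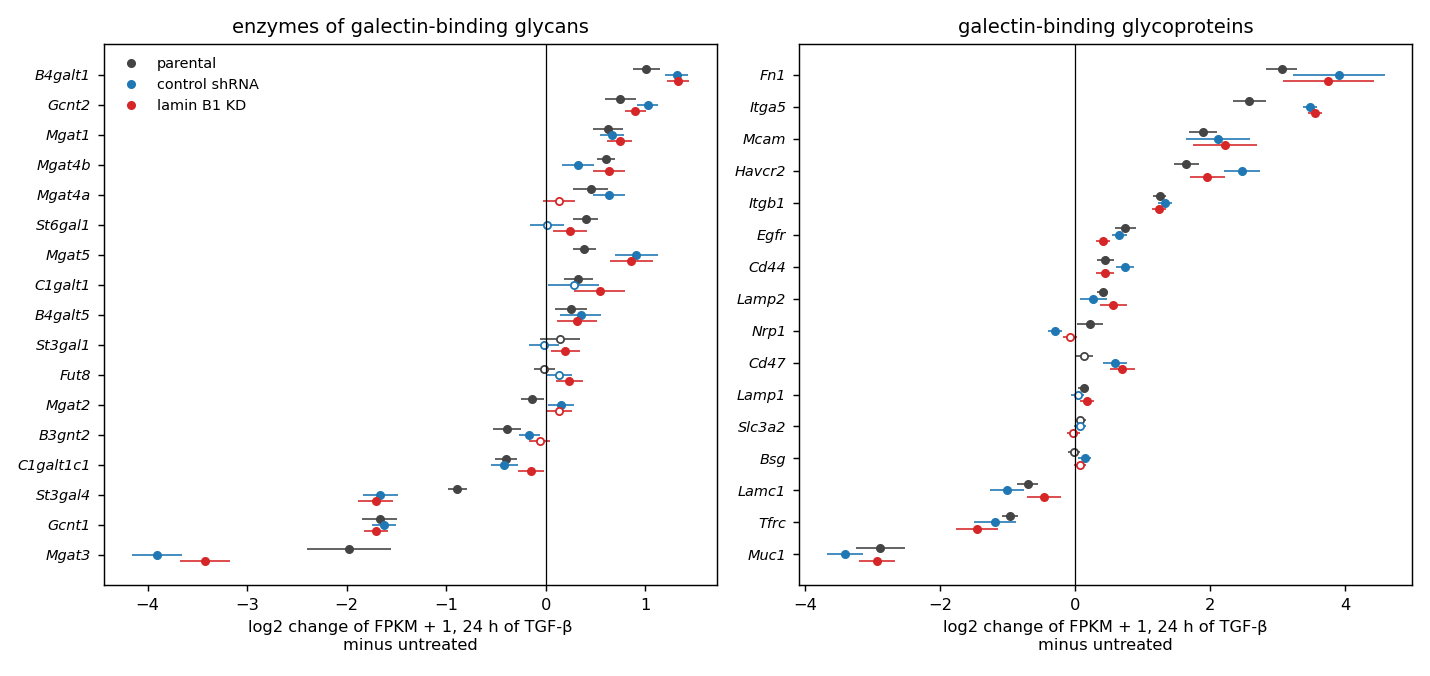
Log2 change of FPKM + 1 after 24 h of TGF-β for the tested enzymes of galectin-binding glycans and the tested galectin-binding glycoproteins, in parental, control shRNA and lamin B1 KD cells. Bars are 95% intervals of the fits, and open points have an adjusted p of 0.05 or more. Mgat3 and Muc1 lie lowest and Fn1 and Itga5 highest in all 3 kinds of cells, where Fn1 changed by 3.06 and Mgat3 by -1.98 in parental cells.

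Between KD and control cells 8 of 17 glycan enzymes passed without TGF-β, 5 higher and 3 lower, and 7 passed at 8 h and 7 at 24 h, all of those higher in KD cells. Of all genes, 19.7%, 35.8% and 28.3% passed in these comparisons, and 10.6%, 19.3% and 16.8% were higher. Gcnt2, which branches lactosamine chains, was higher at each time, with 20.5 and 19.7 against 13.6 and 14.0 FPKM in untreated cells (0.51, adjusted p = 0.00028). At 8 h Mgat1, which opens the way to complex N-glycans, was at 49.9 and 47.8 against 35.5 and 35.2 FPKM (0.45, adjusted p = 0.00048). The median differences of the list were 0.069, 0.23 and 0.13, in the order of time, against -0.00687, 0.00789 and 0.0223 over all genes. Lgals3bp, a secreted glycoprotein that binds galectin-3 and carries its name without being a galectin, was at 112 and 115 against 80.0 and 74.3 FPKM in untreated cells (0.55, adjusted p = 0.0015) and at 67.2 and 79.7 against 33.1 and 32.9 at 24 h (1.13, adjusted p = 5.4e-05). It fell under TGF-β by 1.22 on the log2 scale in parental cells, from 126 and 129 to 53.8 and 54.4 FPKM, and its response at 24 h differed between KD and control cells by 0.57 (adjusted p = 0.022). Lgalsl, a galectin-like gene, was higher in KD cells at 8 h (0.48, adjusted p = 0.0017). Of the further family genes, Grifin was listed at 0 in all 18 libraries and Lgals12 reached at most 0.0126 FPKM.

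The identity of the cells was checked with marker lists. Of 10 epithelial markers, 5 were at 1 FPKM or more in every library of each table, among them Krt8 and Krt18, while Cldn3, Cldn7 and Esrp1 were under 1 in all. The 6 tested epithelial markers moved both ways in parental cells at 24 h, with 3 lower, 2 higher and 1 not called. Cdh1 (E-cadherin) went from 113 and 119 to 39.4 and 41.1 FPKM, while Krt18 went from 1776 and 1720 to 2068 and 2108. Cldn4, a claudin, went from 0.0923 and 0.147 to 9.19 and 7.69 FPKM. It passed the filter only through treated libraries, so a call of this gene carries no weight of its own. Of 10 mesenchymal markers 8 were called higher and 1, Vim, lower (1371 and 1361 to 1199 and 1164 FPKM), where 33.4% of all genes were called higher and 37.1% lower. Blood and endothelial markers were low, with summed levels of 1.35 to 2.95 FPKM for the 8 listed blood markers and of 0.0132 to 1.66 for the 4 endothelial ones. Ptprc, Lyz2, Cd3e, Pecam1 and Cdh5 were under 1 FPKM in every library. Cd68, a lysosomal protein abundant in macrophages, was above 1 in every parental library and was called higher at 24 h (1.45 and 1.52 to 1.93 and 1.91 FPKM, log2 change 0.23, adjusted p = 0.016), and Csf1r, below the filter there, was at 0.0886 and 0.0563 without TGF-β and 0.844 and 0.864 at 24 h.

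Markers of gut epithelium were lower at 24 h, as Lgals2 and Lgals4 were, but parted from Lgals4 at 8 h in shRNA cells. The summed level of the 5 markers Vil1, Cdx1, Cdx2, Cdh17 and Fabp2 was 87.1 to 92.1 FPKM in untreated parental cells, 50.4 to 59.9 at 8 h and 14.3 to 15.1 at 24 h. In control shRNA cells it was 48.2 to 48.8 without TGF-β, 19.5 to 19.6 at 8 h and 5.10 to 5.32 at 24 h, and in KD cells 67.6 to 69.1, 27.3 to 28.2 and 7.14 to 10.6 FPKM. At 8 h Cdh17, Cdx2 and Vil1 were called lower in both, where 44.9% and 44.8% of all genes were called lower. These markers changed by -0.95, -0.96 and -1.95 in control shRNA cells and by -0.85, -1.01 and -2.02 in KD cells. Over all genes the medians were -0.143 and -0.131, and Lgals4 changed by 0.05 in control shRNA and 0.68 in KD cells. At 24 h these 3 markers were called lower in parental, control shRNA and KD cells, where 37.1%, 45.1% and 43.3% of all genes were called lower. Vil1 (villin) went from 23.0 and 25.7 to 3.03 and 3.36 FPKM and Cdx2, a gut transcription factor, from 7.70 and 7.45 to 0.736 and 0.580, while Cdx1 was at 0 in every parental library. Between KD and control cells Vil1 was higher at each time, where 10.6%, 19.3% and 16.8% of all genes were called higher. Cdh17 and Cdx2 were called at no time. Fabp2 was tested in shRNA cells and not in parental cells. Its group mean of log2(FPKM + 1) reached 1 only in untreated KD cells (1.06, against 0.35 in untreated control cells). Its place among the tested markers thus rested on the group where it was high. Its calls carry no weight of their own and are left out here. The part of these markers in the changes of Lgals2 and Lgals4 was not tested.

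Over the libraries, the gene with the pattern most like Lgals4 was Mgst3, a microsomal glutathione transferase. Likeness was taken as the lower of the Pearson r over the 6 parental and over the 12 shRNA libraries, among 1584 genes whose log2 level ranged by at least 1 in both tables, and it is a description, as all these libraries share the TGF-β groups. It was 0.990 for Mgst3, 0.982 for Cdc42ep5, 0.980 for Lgals2, 0.977 for Krt79 and 0.973 for Cdkn3. Lgals3 came at rank 13 (0.963) and Lgals9 at rank 682 (0.467). Mgst3 went from 293 and 281 to 74.1 and 71.0 FPKM in parental cells at 24 h, a smaller fall than that of Lgals4 in the same libraries.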

How the data were processed

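RNA-seq was done by the authors in parental NMuMG cells (6 libraries) and in control shRNA and lamin B1 KD cells (12 libraries), and lamin B1 ChIP-seq and ATAC-seq once at each time. The authors deposited FPKM values by gene in 2 tables without a header, whose columns follow the order that the labels list, and the submitters' processing notes name Bowtie, TopHat, Cufflinks and mm9, with versions not given in the sources used here. The depth is unknown. Single-read values of low genes put the relative depth at 92.8% to 116% of the first library in the parental table and 79.3% to 112% in the shRNA table, and the 10 highest genes held 11.4% to 40.4% of all FPKM. The deposited peaks carry mm9 coordinates and MACS scores, the lowest of which is 50. Parallel ChIPs were mixed before sequencing, and Hi-C was not analysed here.

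FPKM were analysed as log2(FPKM + 1), for genes at 1 FPKM or more in at least 2 libraries, with limma 3.58.1 in R 4.3.3 (trend), all libraries of a table in 1 fit, and Benjamini-Hochberg adjusted p under 0.05. Quoted SE and 95% intervals come from that fit, and p-values from 2 libraries a group measure only the spread between these libraries. In simulated data, 99% of changes of 1 and 93% of changes of 0.5 (log2) were recovered for parental cells at 24 h (11309 genes), with 8 of 200 calls false. For KD against control at 24 h (11450 genes) these were 96% and 75%, with 8 of 179 calls false. The simulated noise was normal, independent and of the fitted spread of each gene, and 100 genes were changed by each size. No shift in scaling was simulated, and far more genes were called in the real data, so these rates may not hold there. Lgals4 was left out of counts of galectins called under TGF-β, and kept in those between KD and control cells and for the difference in response. Genes and peaks were placed with GENCODE M1 on mm9, 20994 of 23295 genes of the parental table by symbol, and peaks were matched in Python 3.11.15 by an overlap of at least 1 bp. Promoter windows were read from RefSeq entries (GRCm38.p6) and placed on mm9 by exact match. The members, lists and marker genes were chosen with earlier results of these data known. Named genes are the members, Lmnb1, the 6 list genes with the largest called change per comparison, the 5 genes most like Lgals4, and the listed cell markers. Cdc42ep1 and Ech1 are named for their position, after their values were seen. Alternatives were a constant of 0.1, no filter, quantile normalization, a fit of only the groups compared, each library left out, a replicate block, and other rules for peaks.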

Additional observations from a re-analysis of the deposited data

Results flagged for a closer look

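The response of Lgals4 to TGF-β differed between lamin B1 KD and control shRNA cells by 0.64 on the log2 scale at 8 h and 0.45 at 24 h, and that of Lgals2 by 0.82 at 24 h, each by a test of the difference itself (limma, adjusted p = 0.0087, 0.021 and 0.00064). The fall of Lgals4 chose the family, so its tests are not independent of that choice, and its differences are a description. Its calls were also lost in some fits with 1 library left out, and at 24 h with only the groups compared.

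Some members moved in opposite directions in parental and shRNA cells, in every library of each group, and the difference between the tables was not tested. With 2 libraries a group this is a weak criterion, and the share of all genes that met it is not given. At 8 h Lgals4 changed by -0.39 in parental and 0.68 in KD cells. At 8 h Lgals3 changed by -0.19 in parental, 0.13 in control shRNA and 0.36 in KD cells. The control shRNA change was not called and was -0.0039 after quantile normalization. The parental change was then -0.07 and no longer called. At 8 h Lgals1 changed by 0.0886 in parental and -0.05872 in KD cells, neither called. At 24 h Lgals8 changed by 0.32 in parental and -0.19 in control shRNA cells, and the latter was not called after quantile normalization.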

How the results depend on the processing

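Leaving 1 library out of a group assumes that the remaining library varies like those of other groups. With the constant of 0.1 or no filter, each count of called galectins was within 1.5 times the value given. The constant of 0.1 moved single values of Lgals4, which was low at 24 h: its change from untreated was then -5.49, -5.78 and -4.92 in parental, control shRNA and KD cells, that from 8 h in parental cells -5.10, its KD difference at 24 h 1.25 in place of 0.84 and its difference in response at 24 h 0.86 in place of 0.45. With no filter, the Lgals1 calls in parental cells between 8 and 24 h and in control shRNA cells at 8 h were lost (adjusted p = 0.073 and 0.083). Under quantile normalization the count in control shRNA cells at 24 h was 3 in place of 5, and 3 small changes turned direction, none of them called: Lgals3 in control shRNA cells at 8 h (-0.0039), Lgals8 in KD cells at 24 h (0.0647) and Lgals1 in untreated KD against control cells (0.0175). With only the groups compared, the count for the difference in response at 24 h was 1 in place of 2. Over single libraries left out, the galectins called for the difference in response ranged from 0 to 2 at 8 h and from 1 to 3 at 24 h. Changes that turned direction in some of these fits ranged from -0.0209 to 0.1151 for Lgals4 in control shRNA cells at 8 h, from -0.0971 to 0.0372 for Lgals8 in KD cells at 24 h, from -0.1148 to 0.0282 for Lgals1 in untreated KD against control cells, from -0.0018 to 0.1035 for the difference in response of Lgals2 at 8 h, and at 24 h from -0.1162 to 0.0268 for that of Lgals1 and from -0.0583 to 0.3342 for that of Lgals9. The cause was not tested.

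With only the groups compared, 732 genes were called in place of 2254 between untreated KD and control cells, 710 in place of 3241 at 24 h, and 714 in place of 465 and 88 in place of 540 for the differences in response at 8 and 24 h. Over single libraries left out, the genes called between KD and control cells ranged from 650 to 3445 in untreated cells, from 2330 to 5247 at 8 h and from 1199 to 4476 at 24 h, and for the differences in response from 25 to 1486 at 8 h and from 85 to 2696 at 24 h. The labels number the shRNA replicates, but same-numbered libraries deviated together in few pairs (r from -0.135 to 0.368, 2 of 15 over 0.1). With a replicate block the counts of galectins called were those given, 1 at 8 h and 2 at 24 h for the difference in response, with 284 in place of 465 genes called at 8 h. No paired analysis was possible for parental cells because their columns carry no replicate number.

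Galectins with an ATAC peak were 1, 1 and 4, in the order of time, when only peaks at or above the median score of a list were kept, 1, 2 and 3 within 500 bp and 1, 2 and 3 within 2500 bp of the start, and 3, 4 and 4 with lists of equal length. Galectins with a lamin B1 peak were 0 under each rule. Without read counts, depth behind a low FPKM or a missing peak cannot be given.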

Other observations

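The rule that named the genes most like Lgals4 was also applied to Lgals2, after the data were seen. The 5 genes most like Lgals2 were Mgst3 (lower r 0.993), Anks4b (0.986), Lgals4 (0.980), Hnf4a (0.979) and Dgat2 (0.974). Hnf4a encodes a transcription factor of liver and gut epithelium, and Anks4b a protein of the brush border. As the libraries share the TGF-β groups, these values are a description over 6 and 12 libraries.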
